A study of Mus musculus with 28 samples.

Results

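Potassium, calcium and hyperpolarization-activated (HCN) channel genes were followed in mouse retina 7 days after crush of the optic nerve, with and without the histone deacetylase 3 inhibitor RGFP966. The genes were chosen by symbol: every symbol beginning Kcn, Cacn or Hcn, other than Kcnj10 and Kcng4, with a mean of at least 10 normalized counts over the libraries used. Of 122 such symbols 99 passed, out of 15773 genes that passed among 35973 in the table, and the 23 others lay under the mean. The lowest genes inside were Kcnrg with a mean of 10.1 and Kcnk13 with 10.6, and the nearest outside were Kcns1 with 8.04 and Kcnn4 with 6.77. A filter on the mean can keep a gene through the group where it is high: 7 of the 99 had a mean under 10 in at least 1 group, among them Kcnk13, Kcng2, Kcnh8 and Kcnk10, which are described below.

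Polyadenylated RNA was sequenced from both retinas of each mouse. Crush was always done on the right nerve (ONC) and the left nerve was spared (CTRL), so side and crush were the same factor, and an uncrushed eye came from a mouse injured in the other eye. The groups were RGFP966 ONC (7 retinas) and RGFP966 CTRL (7 retinas), from 3 female and 4 male mice given 10 mg/kg RGFP966 daily by intraperitoneal injection for 7 days, and vehicle ONC (6 retinas) and vehicle CTRL (6 retinas), from 2 female and 4 male mice given vehicle on the same schedule. The sources used here give neither the strain nor the age, and name no group without crush in either eye. RGFP966 CTRL female A carries a free-text description that mentions crush, against a title and a condition field that say uncrushed, which were followed.

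Voltage-gated potassium channels of the Kv families repolarize neurons and set how fast they can fire, and their auxiliary subunits set the speed and the surface number of the pores. Inward rectifiers and tandem-pore (K2P) leak channels hold the resting potential, in neurons and in glia, and THIK-1, encoded by Kcnk13, is known as a main resting potassium channel of mouse microglia. In photoreceptors Cav1.4, made of Cacna1f with the accessory subunits Cacnb2 and Cacna2d4, drives glutamate release, and the silent subunit Kv8.2 (Kcnv2) modifies the potassium current that shapes the light response. Retinal ganglion cells, whose axons the crush severs, carry Kv, HCN and high-voltage-activated calcium channels for spiking.

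Promoter windows are shown first for 4 of the genes that changed after crush, 2 that rose (Kcnj2 and Kcnk13) and 2 that fell (Kcnip4 and Cacnb3), to show which of 5 motifs each holds near its start site. Each window runs from 250 bases before to 50 bases after the annotated start in the RefSeq annotation of GRCm38.p6, read 5′ to 3′ on the gene's strand. Capitals mark an AP-1 site (TGANTCA), a cAMP response element (TGACGTCA), an E-box (CACGTG), a GC box (GGGCGG) or an ATF4/CHOP element (TGATGNAA), searched on both strands.
Kcnj2, chr11:111065914-111066213, plus strand: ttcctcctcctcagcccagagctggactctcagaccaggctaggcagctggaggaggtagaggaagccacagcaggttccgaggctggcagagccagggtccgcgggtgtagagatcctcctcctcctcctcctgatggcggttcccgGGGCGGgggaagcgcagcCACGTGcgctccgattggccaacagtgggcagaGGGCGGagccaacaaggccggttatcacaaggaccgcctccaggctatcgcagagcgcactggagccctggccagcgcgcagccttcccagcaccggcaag
Kcnk13, chr12:99964249-99964548, plus strand: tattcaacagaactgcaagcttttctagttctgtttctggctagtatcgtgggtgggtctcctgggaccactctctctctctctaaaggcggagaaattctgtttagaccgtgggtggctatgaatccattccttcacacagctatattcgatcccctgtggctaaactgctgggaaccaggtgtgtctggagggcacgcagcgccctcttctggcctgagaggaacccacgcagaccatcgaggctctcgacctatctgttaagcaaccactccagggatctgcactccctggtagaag
Kcnip4, chr5:49285610-49285909, minus strand: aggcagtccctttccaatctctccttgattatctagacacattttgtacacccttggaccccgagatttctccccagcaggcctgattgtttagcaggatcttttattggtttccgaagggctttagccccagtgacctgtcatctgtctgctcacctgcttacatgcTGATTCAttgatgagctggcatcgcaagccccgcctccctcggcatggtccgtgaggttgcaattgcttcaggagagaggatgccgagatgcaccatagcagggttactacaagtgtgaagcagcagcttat
Cacnb3, chr15:98634517-98634816, plus strand: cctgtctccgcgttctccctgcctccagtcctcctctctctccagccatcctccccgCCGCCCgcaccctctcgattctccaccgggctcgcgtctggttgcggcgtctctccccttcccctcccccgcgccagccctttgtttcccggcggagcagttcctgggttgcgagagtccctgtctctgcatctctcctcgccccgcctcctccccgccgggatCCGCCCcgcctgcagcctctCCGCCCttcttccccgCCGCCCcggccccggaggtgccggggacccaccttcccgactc

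The Kcnj2 window held an E-box whose first base lay at -84 and 2 GC boxes, the Kcnip4 window shown held an AP-1 site at -82, the Cacnb3 window shown held 4 GC boxes, and the Kcnk13 window held none of these motifs. Kcnip4 and Cacnb3 each have a second annotated window: the one of Kcnip4 (chr5:48599633-48599932) held none of the motifs and the one of Cacnb3 (chr15:98632078-98632377) held 1 GC box. Of the 99 channel genes 71 were matched to 103 windows. A GC box was present in 48.5% of those windows and in 35.7% of all 32851 windows. An AP-1 site was present in 3.88% of the channel windows and 7.81% of all windows, an E-box in 2.91% and 7.15%, an ATF4/CHOP element in 3.88% and 3.97%, and a cAMP response element in 0.0% and 1.79%. These are matches of letters in short windows and say nothing of whether a factor was bound. The promoters of Kcnk6, Kcnj14, Kcnv2 and Kcng2 were not analysed here.

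The 26 libraries held 17691733 to 21874323 normalized counts each (median 18765690), and 19135 to 20170 genes above 0. Vehicle CTRL male D stood apart: its 12 rod marker genes summed to 2562056.4 normalized counts, against 1669275.5 to 1882528.5 in the other vehicle CTRL libraries, and its bipolar markers summed to 18198.1, against 22360.6 to 24509.1. Without that library 9 channel genes were called for crush in RGFP966 mice and 8 for crush in vehicle mice, with 7 and 5 of those called with it among them. The values that it moved most are given below with and without it. Retinal ganglion cell markers were present in every group and no listed rod, ganglion cell or microglia marker was at 0 on average in any group. Lens markers were uneven, from 51.7 to 62335.2 summed counts in RGFP966 CTRL and from 49.3 to 10766.6 in vehicle CTRL.

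Levels differed widely between channel genes (levels here are mean normalized counts per kilobase of transcript over the 26 libraries). The inward rectifier Kcnj14 (Kir2.4) had the highest level, 5269.9 per kilobase, and other abundant genes were Cacna1f at 2569.1, Kcnv2 at 2433.0, Cacnb2 at 2130.3 and Cacna2d4 at 2094.4. The subunits of the photoreceptor calcium channel (Cacna1f, Cacnb2, Cacna2d4) sat within a narrow range of each other per kilobase only. Their mean counts before division by length were 15617.6, 4509.9 and 12153.5. The Cacnb2 transcript used was the shortest, 2117 bases against 6079 for Cacna1f and 5803 for Cacna2d4. Abundant genes of other families were Kcnab2 (the beta2 subunit of Kv1 channels) at 1236.4, Cacng7 (the TARP gamma-7) at 531.0, Kcnc1 (Kv3.1) at 400.0, Kcnma1 (the BK pore) at 337.0, Kcnd3 (Kv4.3) at 256.0, Kcnh2 (ERG1) at 243.0, Kcna5 (Kv1.5) at 162.0 and Kcnk1 (TWIK-1) at 157.0. At the low end stood Kcnq5 at 2.13, Kcnk10 at 2.34, Kcnh8 at 2.63 and Kcnmb1 at 2.88.

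**Figure D1:**
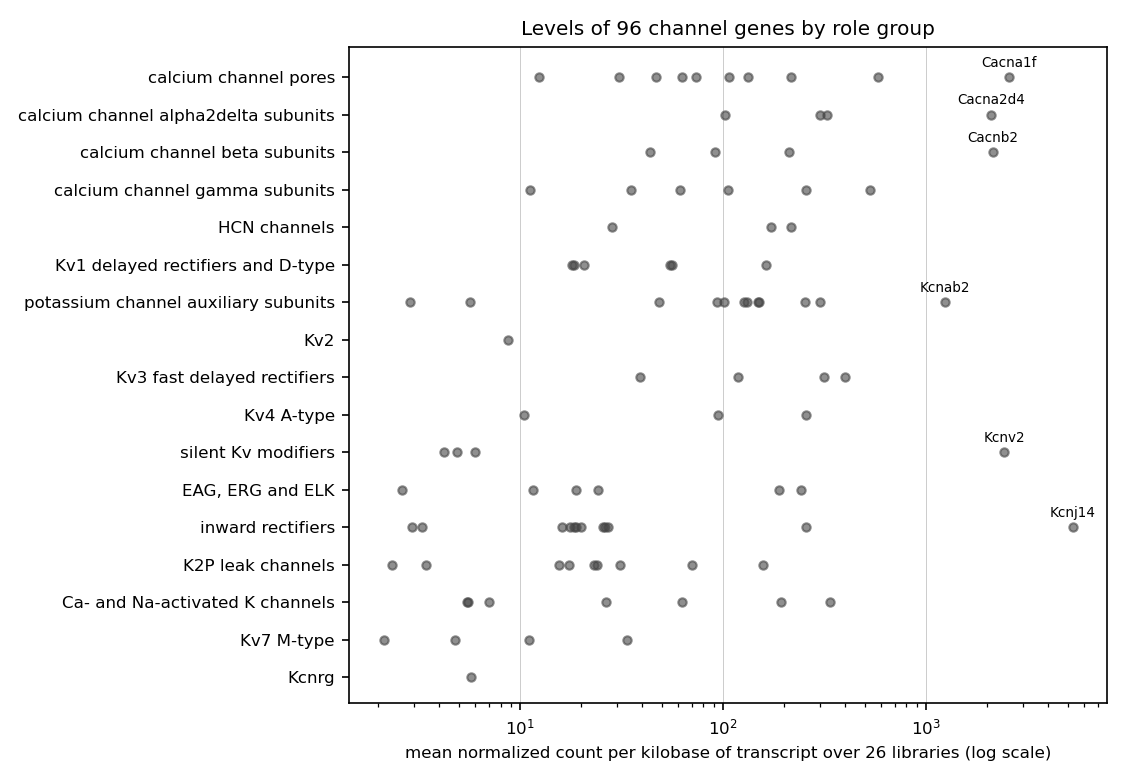
Mean normalized count per kilobase of transcript over 26 libraries (log scale) for 96 channel genes, with 1 point per gene and 1 row per role group; genes over 600 are named. The named points belong to the inward rectifiers, the silent modifiers, the auxiliary subunits and the pore, alpha2delta and beta families of calcium channels.

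A small share of the channel genes was called after crush. An unadjusted limma p under 0.05 was found for 18 of 99 in RGFP966 mice (18.2%, against 15.1% of all genes). In vehicle mice it was found for 24 of 99 (24.2%, against 16.2% of all genes). In RGFP966 mice 7 of 99 (7.07%) passed an adjusted p of 0.05 in limma, against 4.67% of all genes tested. Of these, 2 rose (2.02%, against 3.34% of all genes) and 5 fell (5.05%, against 1.33%). In vehicle mice 6 of 99 passed (6.06%, against 5.34% of all genes), with 2 that rose (2.02%, against 3.69%) and 4 that fell (4.04%, against 1.65%). These counts include genes that the filter on the mean can keep through their high group. They are Kcng2 and Kcnk10 among the falls in RGFP966 mice, and Kcnh8 (a fall) and Kcnk13 (a rise) in vehicle mice. The median log2 change of the 99 genes was -0.02 in RGFP966 mice and 0.01 in vehicle mice, where the median of all genes was -0.01 in both. Single libraries moved both medians. Without RGFP966 ONC male C the RGFP966 median was -0.1, with 32 of 99 above 0 (32.3%, against 46.9% of all genes). Without vehicle CTRL male D the vehicle median was -0.11, with 37 of 99 above 0 (37.4%, against 47.3% of all genes). The 2 comparisons use different groups of libraries, but both came from 1 fit of all 26, with a common estimate of spread and of sex. They are therefore not independent. Together they called 9 genes, and 4 of these were called in both: Kcnk6, Kcnj14, Kcnip4 and Cacnb3. When the libraries were rescaled to the same total, which moved the median of all genes by 0.073 in RGFP966 mice and 0.115 in vehicle mice, 2 genes rose and 4 fell in RGFP966 mice, and 3 rose and 2 fell in vehicle mice. Of all genes called after that rescaling, 85.4% of 884 rose in RGFP966 mice and 91.0% of 1075 in vehicle mice. Before it the shares were 71.5% of 737 and 69.1% of 842. Without vehicle CTRL male D, 2 rose and 7 fell in RGFP966 mice (against 3.56% and 1.75% of all genes), and 2 rose and 6 fell in vehicle mice (against 3.41% and 1.27% of all genes). The calls gained in vehicle mice were those of Kcnd2 (-1.19 ± 0.34, adjusted p = 0.042), Kcng2 (-2.09 ± 0.58, adjusted p = 0.034) and Kcnh7, an ERG-type potassium channel (-0.47 ± 0.12, adjusted p = 0.014), and Kcnh8 was lost (adjusted p = 0.061). In RGFP966 mice Kcnd2 was among the 2 gained (-1.18 ± 0.30, adjusted p = 0.016).

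The mean of both crush contrasts, a comparison added after the data had been seen, uses all 26 libraries. It gave an unadjusted limma p under 0.05 for 32 of 99 channel genes (32.3%, against 23.7% of all genes). It called 15 of 99 channel genes (15.2%, against 11.8% of all genes): 3 rose (3.03%, against 6.78%) and 12 fell (12.1%, against 4.98%). Kcng2, Kcnk10 and Kcnh8 are among these falls and Kcnk13 among the rises, with the same limit from the filter on the mean. Rescaled to the same total, the split was 6 that rose and 7 that fell. Among all genes that rescaling called 2306, of which 86.2% rose, against 57.6% of 1855 without it. When vehicle CTRL male D was left out, 3 rose and 15 fell (against 6.36% and 4.43% of all genes), with 4 calls gained, among them Cacna1c, Kcnab3 and Kcnk9, and Cacnb2 lost. For 57 of the 99 genes the 95% confidence interval of the averaged change lay within a 1.5-fold change, and for 87 within a 2-fold change.

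Kcnk6 encodes TWIK-2, a K2P channel known in mouse macrophages as a path of potassium efflux (chr7:29221926-29232515, GRCm38). It had 85.0, 127 and 165 normalized counts (lowest, median, highest) in RGFP966 ONC, against 53.3, 70.5 and 103 in RGFP966 CTRL. In vehicle ONC it had 84.5, 102 and 171, against 50.1, 55.4 and 86.6 in vehicle CTRL. The groups overlapped at their edges, and the crushed eye was the higher in 7 of 7 RGFP966 mice and in 6 of 6 vehicle mice. The log2 change was 0.75 ± 0.17 (SE) in RGFP966 mice and 0.89 ± 0.18 in vehicle mice, with limma adjusted p of 0.0052 and 0.002.

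Kcnj2 encodes the inward rectifier Kir2.1 (chr11:111066164-111076821), whose promoter is printed above. RGFP966 ONC libraries had 100, 129 and 215 normalized counts (lowest, median, highest), against 57.2, 66.8 and 110 in RGFP966 CTRL. Vehicle ONC libraries had 89.8, 124 and 138, against 59.1, 82.4 and 116 in vehicle CTRL. The crushed eye was the higher in 6 of 7 RGFP966 mice and 6 of 6 vehicle mice, with overlap in both. It rose in RGFP966 mice (log2 change 0.79 ± 0.16, adjusted p = 0.002), while vehicle mice gave 0.51 ± 0.17 with an adjusted p of 0.092, and these 2 changes did not differ past the threshold (difference 0.28 ± 0.24, unadjusted p = 0.25). Without RGFP966 ONC male C, at 215, the change stayed past the threshold, as it did when any other library was left out, between 0.68 and 0.87.

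Kcnk13 (THIK-1, chr12:99964499-100062682) was among the least abundant channel genes, and the filter on the mean can keep it through its ONC groups. It had 8.77, 10.6 and 26 normalized counts (lowest, median, highest) in RGFP966 ONC, against 2.57, 7.42 and 17.3 in RGFP966 CTRL. In vehicle ONC it had 8.49, 13.4 and 22.2, against 0.797, 5.19 and 7.16 in vehicle CTRL. Only the vehicle groups did not overlap, with every vehicle ONC library above every vehicle CTRL library, and the crushed eye was the higher in 6 of 7 RGFP966 mice. It rose in vehicle mice by a log2 change of 1.68 ± 0.41 (adjusted p = 0.011), and RGFP966 mice gave 0.56 ± 0.38 (adjusted p = 0.56). The difference between these changes was -1.13 ± 0.56 with an unadjusted p of 0.055 and an adjusted p of 1.0, so a smaller change under the drug was not established. At this level a few reads decide the value: with a pseudocount of 10 the change in vehicle mice was 0.78, still past the threshold.

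Markers of microglia moved with these 3 genes. In RGFP966 mice 11 of 12 microglia markers rose after crush and in vehicle mice 11 of 12 rose, with median log2 changes of 1.60 and 1.71. Their summed level was 5302.7 to 9835.8 in RGFP966 ONC, against 2313.1 to 2978.2 in RGFP966 CTRL, and 5915.3 to 10599.9 in vehicle ONC, against 1946.4 to 3388.5 in vehicle CTRL. Astrocyte markers also moved: 2 of 6 rose in RGFP966 mice and 3 of 6 in vehicle mice, with summed levels of 1507.5 to 2201.8 in RGFP966 ONC, against 679 to 976 in RGFP966 CTRL, and 1810.5 to 3236.6 in vehicle ONC, against 607 to 1132 in vehicle CTRL. The part of either cell type in the rise of Kcnk6, Kcnj2 and Kcnk13 was not tested. In whole retina, more or fewer cells of a type and more or less RNA per cell cannot be told apart.

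**Figure D2:**
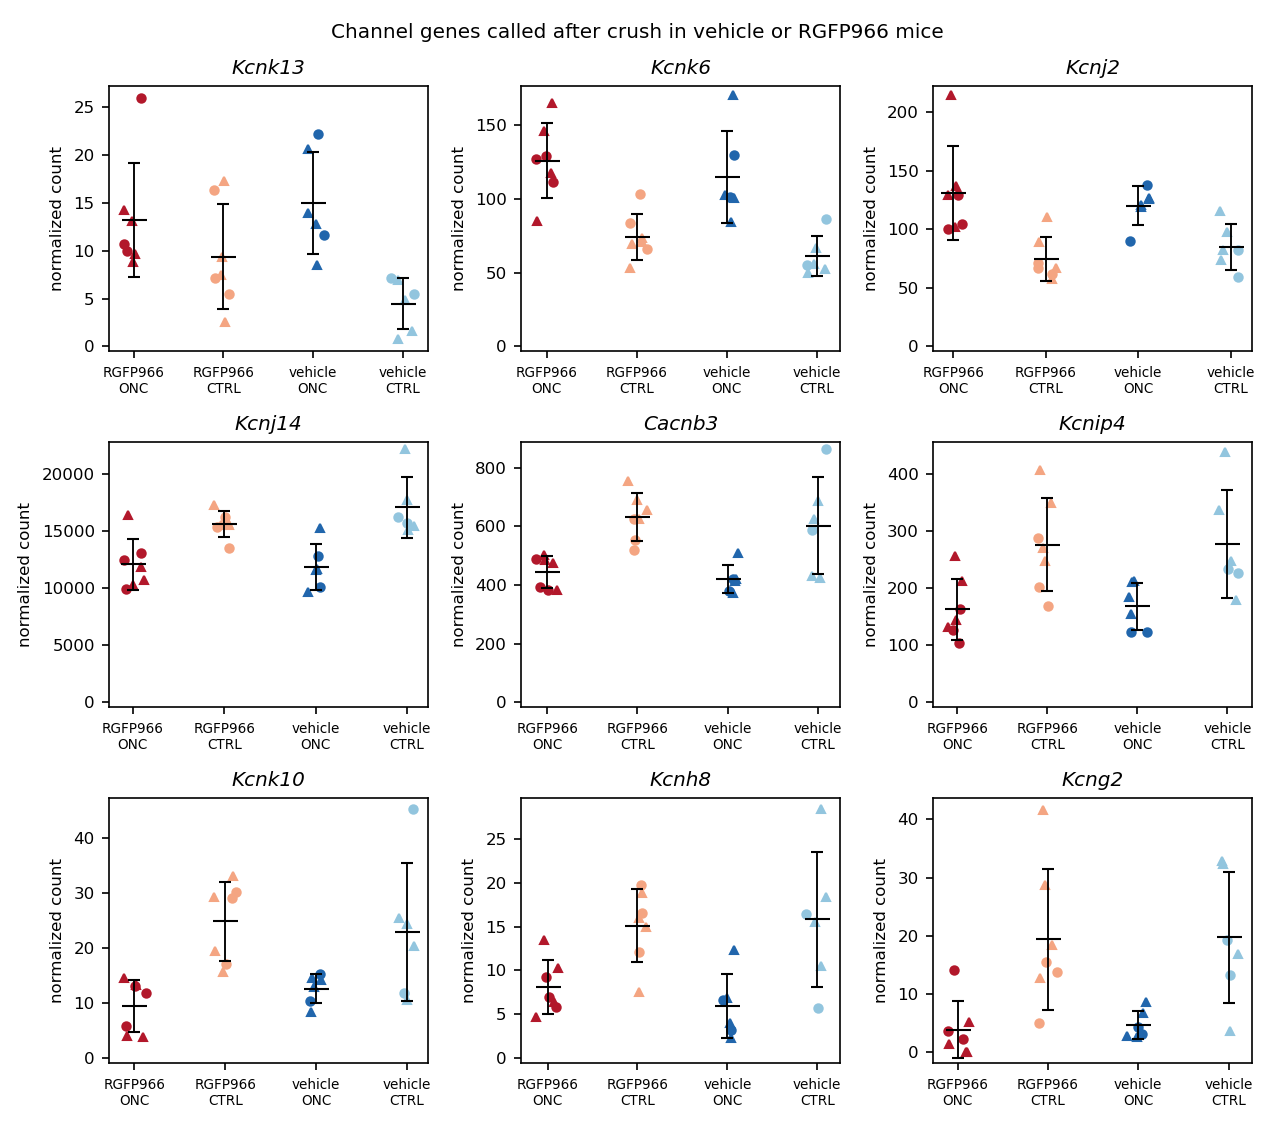
Normalized counts of the 9 channel genes called after crush in RGFP966 or vehicle mice, with 1 point per library (circles female, triangles male) and bars for mean ± SD; groups run RGFP966 ONC, RGFP966 CTRL, vehicle ONC and vehicle CTRL. The crushed groups lie higher for Kcnk13, Kcnk6 and Kcnj2 and lower for the other 6 genes, and most pairs of groups overlap.

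Among the genes that fell, Kcnip4 and Cacnb3 did so in both sets of mice. Kcnip4 encodes KChIP4, a calcium-binding subunit of Kv4 channels (chr5:48389502-49524907). It had 105, 143 and 256 normalized counts (lowest, median, highest) in RGFP966 ONC, against 169, 270 and 407 in RGFP966 CTRL. In vehicle ONC it had 123, 169 and 212, against 180, 240 and 439 in vehicle CTRL. The groups overlapped, yet the crushed eye was the higher in 0 of 7 RGFP966 mice and 0 of 6 vehicle mice. The log2 changes were -0.76 ± 0.18 and -0.69 ± 0.19 in RGFP966 and vehicle mice, with adjusted p of 0.0074 and 0.028.

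Cacnb3 encodes the beta3 subunit of high-voltage-activated calcium channels (chr15:98630840-98644529). RGFP966 ONC libraries had 383, 476 and 503 normalized counts, against 518, 626 and 755 in RGFP966 CTRL, and these groups did not overlap. Vehicle ONC libraries had 371, 418 and 507, against 425, 605 and 863 in vehicle CTRL, with overlap. The crushed eye was the higher in 0 of 7 RGFP966 mice and 0 of 6 vehicle mice. The log2 change was -0.51 ± 0.13 in RGFP966 mice (adjusted p = 0.014) and -0.48 ± 0.14 in vehicle mice (adjusted p = 0.032). Its family partner Cacnb2, which pairs with Cav1.4, had a smaller averaged change, and Cacnb1 and Cacnb4 had averaged log2 changes of 0.01 and -0.28 that did not pass.

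The vehicle calls of these genes were close to the threshold. Leaving out 1 library at a time, the Kcnip4 call in vehicle mice was lost in 7 of 26 cases, with adjusted p of 0.06 to 0.083: those of vehicle ONC females A and C and male D, and of vehicle CTRL females A and C and males A and B. The Cacnb3 call in vehicle mice was lost in 9 cases, with adjusted p of 0.054 to 0.11: those of vehicle ONC females A and C and males B, C and D, and of vehicle CTRL females A and C and males A and B. Every loss for both genes came from the 6 vehicle ONC and 6 vehicle CTRL libraries. The other cases include all RGFP966 libraries, which are in neither group of this comparison. After rescaling to the same total, adjusted p was 0.1 for Kcnip4 in vehicle mice and, for Cacnb3, 0.066 in RGFP966 mice and 0.15 in vehicle mice. In the averaged comparison both genes passed under every setting and without each library, with highest adjusted p of 0.00053 for Kcnip4 and 0.001 for Cacnb3 when a library was left out. That comparison also draws on the RGFP966 mice and was added after the data had been seen, so it does not settle the vehicle calls.

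The rarer channel genes Kcng2, Kcnk10 and Kcnh8 were called with larger falls from low levels. The filter on the mean can keep each of them through its CTRL groups. Kcng2, for example, had means of 3.8 and 4.7 in RGFP966 and vehicle ONC, against 19.4 and 19.7 in CTRL. With standard errors this wide only large changes can pass, so the size of these falls and their p-values carry that limit. Kcng2 encodes the silent Kv6.2 subunit (chr18:80294546-80364254). It had 0.0, 2.3 and 14.1 normalized counts in RGFP966 ONC, where 2 libraries were listed at 0, against 4.93, 15.6 and 41.6 in RGFP966 CTRL. In vehicle ONC it had 2.65, 3.68 and 8.57, against 3.62, 18.1 and 32.9 in vehicle CTRL. It fell in RGFP966 mice (log2 change -2.44 ± 0.55, adjusted p = 0.0055), and vehicle mice gave -1.71 ± 0.59 (adjusted p = 0.1). With a pseudocount of 10 the RGFP966 value was -1.05, so the size depends on how low values are treated, while the call did not.

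Kcnk10 encodes TREK-2, a mechanically and lipid-gated K2P channel (chr12:98429437-98578310). It had 3.93, 11.8 and 14.6 normalized counts in RGFP966 ONC, against 15.6, 29.0 and 33.1 in RGFP966 CTRL, without overlap. Vehicle ONC had 8.48, 13.5 and 15.3, against 10.6, 22.3 and 45.2 in vehicle CTRL, with overlap. It fell in RGFP966 mice (log2 change -1.39 ± 0.32, adjusted p = 0.0079), and vehicle mice gave -0.68 ± 0.35 (adjusted p = 0.35). With a pseudocount of 10 the change in RGFP966 mice was -0.85.

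Kcnh8 encodes the ELK1 channel Kv12.1 (chr17:52602709-52979194). It had 4.75, 6.95 and 13.5 normalized counts in RGFP966 ONC, against 7.5, 16.0 and 19.7 in RGFP966 CTRL. Vehicle ONC had 2.34, 5.32 and 12.3, against 5.77, 16.0 and 28.3 in vehicle CTRL, and both pairs of groups overlapped. It fell in vehicle mice (log2 change -1.30 ± 0.37, adjusted p = 0.033), and RGFP966 mice gave -0.83 ± 0.34 (adjusted p = 0.21). The vehicle call was lost, with adjusted p of 0.061 to 0.091, when any of vehicle ONC female A and males A and B, or vehicle CTRL female A and males A, B and D, was left out, and the change was -0.67 with a pseudocount of 10. The differences between the changes in RGFP966 and vehicle mice did not pass for Kcng2 (-0.73 ± 0.81), Kcnk10 (-0.71 ± 0.48) or Kcnh8 (0.47 ± 0.50), with unadjusted p of 0.37, 0.15 and 0.36.

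Kcnd2 (Kv4.2, the A-type pore that KChIP subunits bind, chr6:21215503-21729805) and Hcn2 passed only in the averaged comparison. Kcnd2 had 15.6, 28.1 and 62.0 normalized counts in RGFP966 ONC, against 35.4, 65.6 and 132 in RGFP966 CTRL, and 20.8, 29.4 and 50.9 in vehicle ONC, against 18.7, 51.0 and 146 in vehicle CTRL. Its averaged log2 change was -1.0 ± 0.26 (adjusted p = 0.011). The other Kv4 pores, Kcnd1 and Kcnd3, had averaged changes of -0.18 and 0.18 that did not pass. Hcn2 averaged 624 ± 104 normalized counts in RGFP966 ONC and 759 ± 164 in RGFP966 CTRL (SD, n = 7 each), and 637 ± 99.9 in vehicle ONC and 751 ± 154 in vehicle CTRL (SD, n = 6 each). Its averaged log2 change was -0.25 ± 0.06 (adjusted p = 0.0096), and 0.13 was its adjusted p after rescaling to the same total. Hcn3 and Hcn4 gave 0.11 and 0.08 and did not pass.

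Ganglion cell markers moved with the genes that fell. In RGFP966 mice 12 of 22 ganglion cell markers fell and 1 rose, and in vehicle mice 10 fell and 1 rose, with median log2 changes of -1.11 and -0.75. Their summed level was 8526.7 to 12984.7 in RGFP966 ONC, against 15677.3 to 22076.2 in RGFP966 CTRL, and 8959.7 to 11786.5 in vehicle ONC, against 14617.7 to 24345.1 in vehicle CTRL. Their part in the falls of Kcnip4, Cacnb3, Kcng2, Kcnk10, Kcnh8, Kcnd2 and Hcn2 was not tested.

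**Figure D3:**
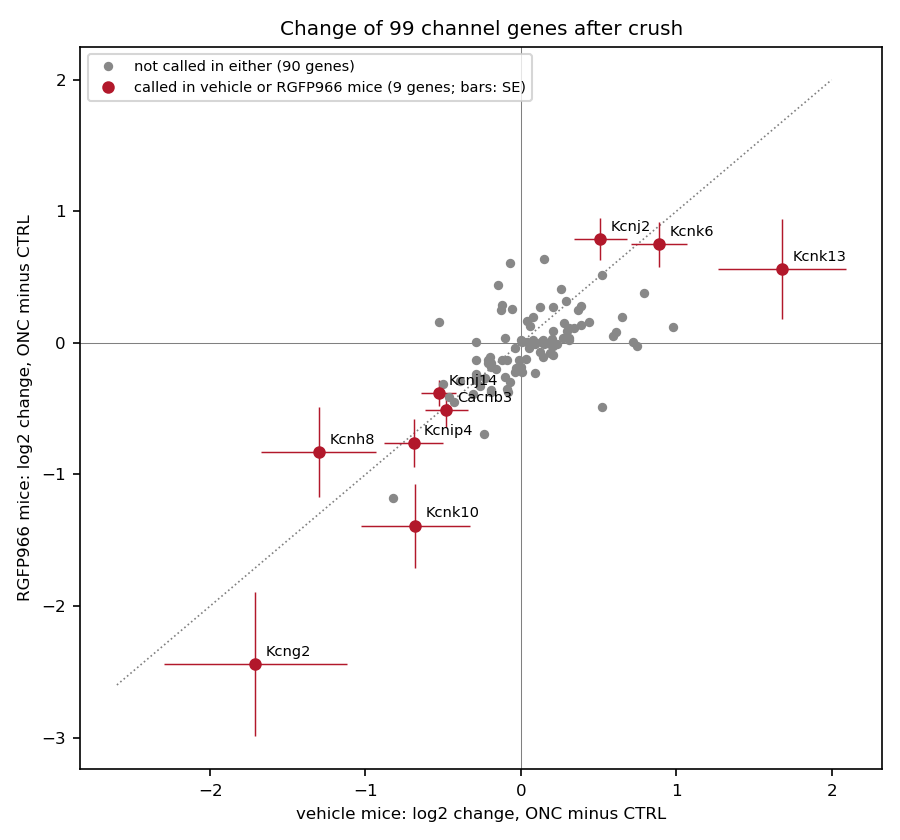
Log2 change after crush (ONC minus CTRL) of the 99 channel genes, with RGFP966 mice on the vertical axis and vehicle mice on the horizontal axis; red points are the 9 genes called in either set of mice with bars of 1 SE, and the dotted line marks equal change. Most grey points lie near 0 on both axes, and each red gene has the same sign in both sets of mice.

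Among the most abundant channel genes, Kcnj14 was called in both sets of mice. Its averaged log2 change was -0.46, against -0.50 for Cacnb3. Kcnj14 (chr7:45816460-45824782) had 9889.0, 11830.3 and 16368.0 normalized counts in RGFP966 ONC, against 13541.0, 15544.4 and 17255.6 in RGFP966 CTRL. In vehicle ONC it had 9690.8, 11642.9 and 15291.8, against 15129.5, 15947.3 and 22171.8 in vehicle CTRL. The vehicle groups overlapped at their edges, while RGFP966 ONC male A, at 16368.0, lay above the RGFP966 CTRL median. The crushed eye was the higher in 1 of 7 RGFP966 mice and 0 of 6 vehicle mice. It fell by a log2 change of -0.38 ± 0.10 in RGFP966 mice (adjusted p = 0.026) and -0.53 ± 0.11 in vehicle mice (adjusted p = 0.003). Without vehicle CTRL male D, the library at 22171.8, the vehicle change was -0.45 with an adjusted p of 0.011. The RGFP966 call was lost without RGFP966 ONC female A (adjusted p = 0.07), RGFP966 CTRL female C (0.061), RGFP966 CTRL male B (0.057), RGFP966 ONC male B (0.067) or RGFP966 ONC male D (0.071).

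Kcnv2, Cacnb2 and Kcnab2 were called only in the averaged comparison, and each of these calls was lost under both other scalings. Kcnv2 (chr19:27322588-27337179) averaged 11520.0 ± 965 in RGFP966 ONC and 12749.2 ± 1108.2 in RGFP966 CTRL (SD, n = 7 each), and 11845.8 ± 489 in vehicle ONC and 13694.2 ± 2393.0 in vehicle CTRL (SD, n = 6 each). Without male D, the vehicle CTRL mean of Kcnv2 was 12719.4 ± 175 (SD, n = 5). Every vehicle ONC library lay below every vehicle CTRL library for Kcnv2. Its averaged change was -0.17 ± 0.05 (adjusted p = 0.039), against 0.24 and 0.14 as adjusted p after rescaling and after quantile normalization.

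Cacnb2 (chr2:14603088-14987908) had an averaged log2 change of -0.18 ± 0.06 (adjusted p = 0.037) and Kcnab2 (chr4:152390742-152477871) had -0.27 ± 0.08 (adjusted p = 0.018). After rescaling to the same total, adjusted p was 0.25 for Cacnb2 and 0.13 for Kcnab2, and after quantile normalization 0.11 and 0.082. Leaving out single libraries ended the Cacnb2 call in 14 of 26 cases, with adjusted p up to 0.074: those of RGFP966 ONC females A, B and C and male B, RGFP966 CTRL females A and C and males B and D, vehicle ONC males B, C and D, and vehicle CTRL female C and males A and D. It ended the Kcnv2 call in 11 of 26 cases, with adjusted p up to 0.069: those of RGFP966 ONC female A and male B, RGFP966 CTRL females B and C and males B and D, and vehicle ONC female A and males A, B, C and D. Cacna1f and Cacna2d4, the other subunits of the photoreceptor calcium channel, did not pass. Cacna1f averaged 15431.2 ± 3015.9 in RGFP966 ONC and 16624.6 ± 1898.2 in RGFP966 CTRL, and 14034.5 ± 2781.0 in vehicle ONC and 16243.2 ± 3327.4 in vehicle CTRL, with an averaged log2 change of -0.17 (95% confidence interval -0.35 to 0.01). Cacna2d4 gave -0.04 (-0.13 to 0.05), an interval within a 1.5-fold change.

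Rod markers moved with these genes. In RGFP966 mice 2 of 12 rod markers fell and in vehicle mice 7 of 12 fell, with median log2 changes of -0.23 and -0.30, and the averaged comparison called 10 of 12 lower. When vehicle CTRL male D was left out, 6 of 12 fell in RGFP966 mice, 2 of 12 in vehicle mice and 10 of 12 in the averaged comparison. Their summed level was 1187989.4 to 1765094.1 in RGFP966 ONC, against 1546304.5 to 1843274.1 in RGFP966 CTRL, and 1271705.5 to 1694940.8 in vehicle ONC, against 1669275.5 to 2562056.4 in vehicle CTRL. Their part in the falls of Kcnj14, Kcnv2, Cacnb2 and Kcnab2 was not tested.

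With all 26 libraries and no rescaling, whole families showed no call in any comparison. None of the 10 calcium channel pores, 4 alpha2delta subunits, 6 gamma subunits, 6 Kv1 genes, 4 Kv3 genes, 7 calcium- or sodium-activated channels or 5 Kv7 genes passed for crush. Without vehicle CTRL male D this did not hold for every family: the calcium pore Cacna1c passed in the averaged comparison (-0.40 ± 0.12, limma adjusted p = 0.022). Averaged log2 changes ran from -0.44 to 0.10 over the calcium pores, from -0.46 to 0.07 over Kv3, from -0.22 to 0.43 over Kv1 and from -0.41 to 0.52 over the calcium- and sodium-activated channels. Kcnc1, the Kv3 pore of fast-spiking cells, gave -0.07 (95% confidence interval -0.31 to 0.17), Kcnma1 gave 0.30 (0.04 to 0.55, adjusted p = 0.13) and Kcna5 gave 0.43 (0.05 to 0.80, adjusted p = 0.14). Kcnh2 gave 0.15 (-0.04 to 0.35). Kcnk1 gave 0.31 (0.09 to 0.54, adjusted p = 0.067), Kcnd3 gave 0.18 (-0.10 to 0.45) and Cacng7 gave -0.11 (-0.20 to -0.02, adjusted p = 0.13). Kcnrg, a soluble channel regulator and the gene nearest the threshold, gave 0.02 (-0.57 to 0.60), an interval too wide to tell a change from none.

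**Figure D4:**
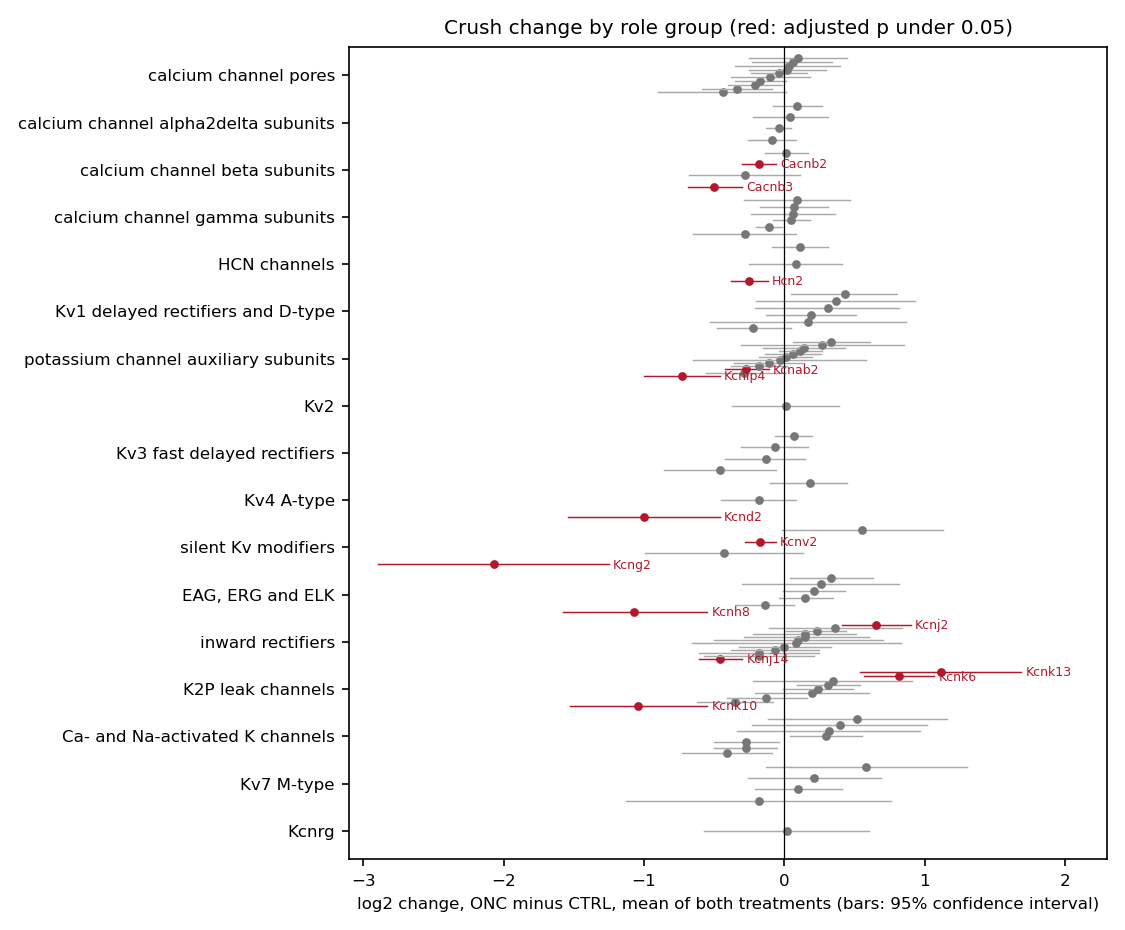
Averaged log2 change after crush (ONC minus CTRL, mean of both treatments) for 96 channel genes, each with its 95% confidence interval, in rows by role group; red marks an adjusted p under 0.05. Of the red genes shown, 3 sit to the right of 0 and 11 to the left, and 9 of the rows hold no red gene. Over all 99 genes, rescaling to the same total gave 6 that rose and 7 that fell. Among all genes it called 2306, of which 86.2% rose.

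Genes that work with these channels were read from a separate list of 44 partners (anchors, chaperones and regulators), 41 of which passed the mean. In RGFP966 mice 1 fell (1.33% of all genes fell) and 0 rose (3.34% of all genes), and in vehicle mice 2 fell (1.65% of all genes) and 0 rose (3.69%). Lgi1, a secreted ligand that regulates Kv1 channels, fell in both, with log2 changes of -1.06 ± 0.29 in RGFP966 mice and -1.13 ± 0.31 in vehicle mice (adjusted p = 0.029 each). Dpp10, an auxiliary subunit of Kv4 channels like the KChIPs, averaged 95.3 ± 75.2 normalized counts in RGFP966 ONC and 152 ± 56.5 in RGFP966 CTRL, and 70.4 ± 16.4 in vehicle ONC and 201 ± 114 in vehicle CTRL. It fell in vehicle mice (-1.32 ± 0.37, adjusted p = 0.03), and RGFP966 mice gave -0.88 ± 0.34 (adjusted p = 0.17). In the averaged comparison 6 of 41 fell (4.98% of all genes fell) and 0 rose (6.78% of all genes). Those that fell were Lgi1 (-1.09), Dpp10 (-1.10), Lgi3 (-0.43), Cntnap1, a paranodal adhesion protein (-0.31), Rims2, a scaffold of the active zone (-0.20), and Cabp4, a calcium sensor of Cav1.4 (-0.17). The median averaged change of the 41 partners was -0.07, against -0.01 over all genes. With vehicle CTRL male D left out, 4 partners fell in RGFP966 mice, 2 in vehicle mice and 7 in the averaged comparison.

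RGFP966 changed no channel gene past the threshold. In crushed eyes 0 of 99 passed (0.0% of all genes tested), and 1 of 99 had an unadjusted p under 0.05, against 2.55% of all genes. In uncrushed eyes 0 of 99 passed (0.0% of all genes), and 7 of 99 (7.07%) had an unadjusted p under 0.05, against 4.96% of all genes. For the drug by crush interaction 0 of 99 passed (0.0% of all genes), with 0 at an unadjusted p under 0.05, against 2.07% of all genes. These counts come from limma, the tool used throughout, and 0 channel genes passed under each of the alternative settings.

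In crushed eyes the smallest p-values were those of Kcnj11, the pore of ATP-sensitive potassium channels, Kcnn2, the SK2 channel, and Cacna1i, a T-type calcium pore. Kcnj11 had 72.1, 92.7 and 173 normalized counts in RGFP966 ONC, against 42.4, 63.9 and 98.9 in vehicle ONC, with overlap, and a log2 difference of 0.66 ± 0.25 (95% confidence interval 0.14 to 1.18, unadjusted p = 0.015, adjusted p = 1.0). Kcnn2 gave 0.45 ± 0.22 and Cacna1i 0.39 ± 0.20, with unadjusted p of 0.052 and 0.058. For the genes called in both crush comparisons the drug differences in crushed eyes were 0.13 ± 0.18 for Kcnk6, 0.09 ± 0.13 for Cacnb3, -0.02 ± 0.18 for Kcnip4 and 0.03 ± 0.11 for Kcnj14. Larger values, with wide intervals, were those of Kcng2 (-0.73 ± 0.57, 95% confidence interval -1.90 to 0.44), Kcnh8 (0.51 ± 0.36, -0.22 to 1.24) and Kcnk10 (-0.51 ± 0.34, -1.21 to 0.18), each with an adjusted p of 1.0.

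In uncrushed eyes the smallest p-values included those of Cacnb1 and Kcnip3. Cacnb1, a beta subunit of calcium channels, had 312, 336 and 431 normalized counts in RGFP966 CTRL, against 201, 261 and 328 in vehicle CTRL, with overlap, and a log2 difference of 0.41 ± 0.11 (unadjusted p = 0.00082, adjusted p = 0.91). Kcnip3, also known as the transcriptional repressor DREAM, gave 0.32 ± 0.11 with an adjusted p of 0.91. The median log2 difference of the 99 genes in uncrushed eyes was 0.15, with 77 of 99 at or above 0 (77.8%, against 49.8% of all genes). Without vehicle CTRL male D the median was 0.05, with 61 of 99 at or above 0 (61.6%, against 50.4% of all genes).

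**Figure D5:**
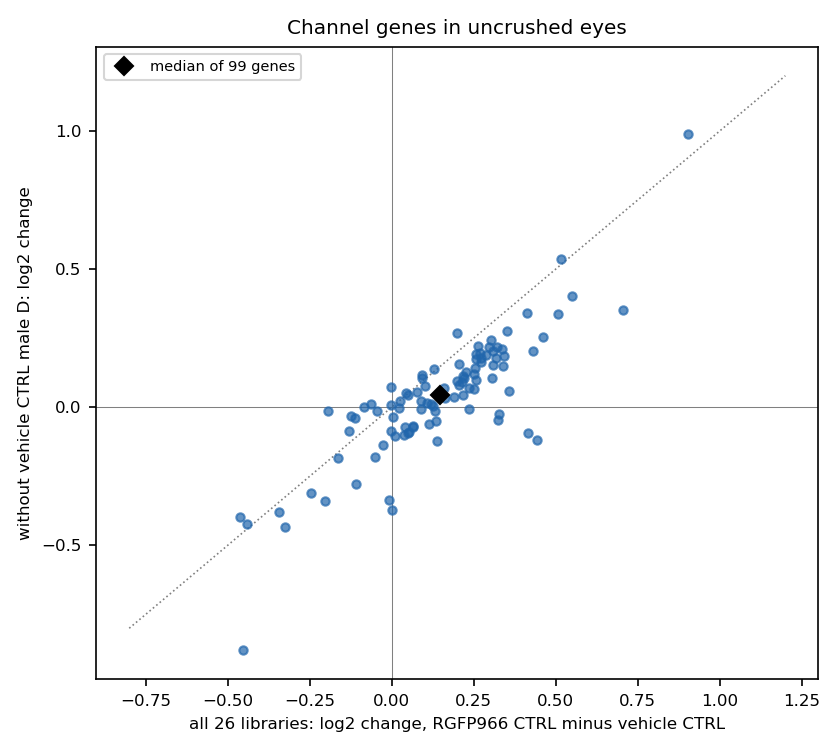
Log2 difference between RGFP966 CTRL and vehicle CTRL for each of the 99 channel genes, with all 26 libraries on the horizontal axis and without vehicle CTRL male D on the vertical axis; the diamond is the median and the dotted line marks equal values. Most points lie below the dotted line, and the median is 0.15 with all libraries and 0.05 without that library.

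For the interaction the smallest p-values included those of Kcnk13 (-1.13 ± 0.56, given above) and Kcnrg (-1.01 ± 0.57, unadjusted p = 0.085). The median over the 99 genes was -0.11 with all libraries, with 34 at or above 0 (49.7% of all genes), and 0.01 without vehicle CTRL male D, with 50 at or above 0 (48.8% of all genes). The same library moved the median crush change in vehicle mice, which was 0.01 with it and -0.11 without it.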

How the data were processed

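Retinal RNA of 28 labelled samples was sequenced, and the authors deposited 1 table of signal, described as DESeq2-normalized counts. Per the submitters' processing notes, kallisto 0.46.1 and mm10 were used. The sources used here do not give the DESeq2 version, the trimming of reads or a sequencing batch. Whole reads could not be recovered (43.6 to 64.3% of low values per library lay within 0.05 of a whole multiple, median 55.1%), so read depth and counting intervals are not given. Precision is shown by the spread between libraries. The table held 28 columns of values; 2 carried the same name and were not used, leaving 26 libraries of 13 mice. Another 26 entries whose symbols had become dates (0.115% of the total) were left out.

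Values were analysed as log2(value + 1) with limma 3.58.1 in R 4.3.3, in 1 model of the 4 groups with sex as a covariate, with a trended empirical Bayes prior and two-sided tests. Genes with a mean of at least 10 (15773) were tested, with Benjamini-Hochberg adjustment over all of them and a threshold of 0.05. Log2 changes on this scale understate changes of low genes. The fit was tested on simulated data with a common spread and changes only in genes with a mean of at least 50. That setting does not cover Kcnk13, Kcng2, Kcnh8 and Kcnk10. Gene positions and lengths are from GENCODE vM21 (GRCm38), with the longest principal transcript of each gene; some principal transcripts hold little UTR, which raises a level per kilobase. The notes do not state that strand was kept, so reads of overlapping antisense genes cannot be told apart.

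Both eyes of a mouse share its label, so the mouse pairs them. The consensus correlation of paired eyes was -0.029; residual correlations within mice were -0.441 to 0.33 (median -0.018), over 0.1 in 3 of 13 mice. A fit with the mouse as a block was an alternative. The members and lists were chosen with earlier results of these data known. Named genes are every member called in any comparison, the member with the highest level per kilobase in each role group, those nearest the mean threshold, and, where nothing was called, the 3 with the smallest p; 3 member genes are counted but not reported here.

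The marker lists not described in the report gave these averaged crush results: 2 of 10 cone, 0 of 12 bipolar, 1 of 11 amacrine and 0 of 5 horizontal genes fell, 4 of 9 Müller glia genes rose and 2 fell, 1 of 9 endothelial and 1 of 9 pericyte genes rose, 1 of 7 ciliary body genes fell, and 0 of 8 pigment epithelium, 0 of 10 lens, 0 of 4 muscle and 0 of 5 red blood cell genes were called.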

Additional observations from a re-analysis of the deposited data

Results flagged for a closer look

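Of 128 sets of values (32 named channel genes in each of 4 groups), 10 had a highest or lowest library that stood apart from the rest of its group by Dixon's criterion; chance flags about 1 in 20 such sets. Vehicle CTRL male D gave 3 of them. Kcnv2 was 18568.5 normalized counts there, against 12473.2 to 12918.9 in the other vehicle CTRL libraries. Kcnj14 was 22171.8 there, against 15129.5 to 17757.7. Kcnn2 was 170 there, against 223 to 238. The same mouse's crushed eye, vehicle ONC male D, had the highest Kcnn2 of its group, 315, against 110 to 173.

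In RGFP966 ONC male C, Kcnj2 was 215, against 100 to 137 in the other RGFP966 ONC libraries, and Kcnd3 was 1522.4, against 468 to 872. Kcnk13 was 26 in RGFP966 ONC female C, against 8.77 to 14.3, and Kcng2 was 14.1 in RGFP966 ONC female A, against 0.0 to 5.11. Kcnv2 was 15036.8 in RGFP966 CTRL male B, against 11624.5 to 12928.0. Cacnb3 was 507 in vehicle ONC male A, against 371 to 421.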

How the results depend on the processing

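Each gene called after crush kept its direction, in the comparison that called it, under the alternatives run. Calls in vehicle mice were 2 higher and 4 lower, and 3 higher and 2 lower after rescaling to the same total. Among all genes that rescaling called 1075 in vehicle mice, of which 91.0% rose, against 69.1% of 842 without it. Without RGFP966 ONC male C the median crush change of the 99 genes in RGFP966 mice was -0.1, against -0.02 with it. Without vehicle CTRL male D the median change of the 99 genes turned to -0.11 for crush in vehicle mice, against 0.01 with it, and to 0.01 for the interaction, against -0.11 with it, and drug differences of single genes in uncrushed eyes changed sign, among them Kcnd2 (-0.03 without it, 0.33 with it) and Kcnip4 (-0.09 without it, 0.05 with it). With the mouse as a replicate block the counts of called channel genes were 7 for crush in RGFP966 mice, 6 in vehicle mice, 15 for the averaged comparison and 0 for each drug comparison, and the calls were the same genes. A pseudocount of 10, no filter on the mean, rescaling to the same total, quantile normalization, robust moderation and fitting only the groups compared gave 6 to 8 calls in RGFP966 mice and 4 to 7 in vehicle mice; the fit of only the groups compared was not run for the interaction or the averaged comparison. With no filter on the mean, the vehicle calls of Cacnb3 (adjusted p = 0.052) and Kcnh8 (0.058) and the averaged calls of Cacnb2 (0.06) and Kcnv2 (0.07) were lost, and fitting only the vehicle groups lost Cacnb3 (0.11) and Kcnh8 (0.13). Leaving out each library in turn gave 6 to 9 calls in RGFP966 mice, 3 to 8 in vehicle mice, 13 to 18 in the averaged comparison and 0 to 0 in each drug comparison. The vehicle count was 3 when any 1 of vehicle ONC female A, vehicle CTRL female A and vehicle CTRL males A and B was left out. Kcnk13 fell under the mean threshold without RGFP966 ONC female C and was not tested there. Read depth is unknown, and for Kcnk13, Kcng2, Kcnh8 and Kcnk10, with means of 10.6 to 17.5, the size of a change depends on the pseudocount.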
